A study of Mus musculus with 4 samples.

Results

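The EGF family ligands and their ErbB receptors form the set of genes described here, in RNA from mouse lung endothelial cells (ECs) after unilateral pneumonectomy (PNX), the surgical removal of one lung. The 10 genes were chosen by symbol from 24063 gene symbols. The rule did not use their measured values, but it was set with earlier results of these data known. They are the 6 ligand genes Hbegf, Areg, Ereg, Btc, Tgfa and Nrg1 and the 4 receptor genes Egfr, Erbb2, Erbb3 and Erbb4. ECs had been isolated with magnetic beads carrying an antibody to CD31, from the lungs of C57BL6 mice (C57BL6J in the design text) that were 8 weeks old and labelled as male. One group had undergone PNX 7 days earlier and the other was sham-operated. No allele was named for either group. The study's methods name ketamine and xylazine for anesthesia and meloxicam as an analgesic after surgery. Each group had 2 libraries, and every library was pooled from 2 mice, so the values carry no information on single animals and each spread rests on 2 pools. The comparison asks which EGF family growth factors and receptors differed in lung ECs during the growth of the remaining lung.

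EGF family ligands are made as membrane-anchored precursors and are released when a metalloprotease cuts them near the membrane. The released ligand binds an ErbB receptor, receptors pair with each other, and the paired kinases start the Ras-ERK and PI3K-Akt pathways. In the lung these factors are known for growth signals to epithelial cells, and the vascular endothelium is a known source of heparin-binding EGF.

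With 1 transcript taken for each gene, the libraries held between 41367438 and 50952879 counts, and a floor of 3 counts corresponded to between 0.0589 and 0.0725 CPM (counts scaled to library size). Of the 24063 genes, 16208 passed the filter on low counts and were tested. The defining endothelial markers Pecam1 and Cdh5 were abundant, at a sham mean of 954 and 959 TPM (a level scaled to transcript length and to the library). Some markers of other cells were more abundant still, with the club cell gene Scgb1a1 at 10798 and the alveolar type 2 gene Sftpc at 7384 TPM. Lyz2, listed here as a macrophage marker, was at 4746 TPM. Ptprc, which encodes CD45 of blood cells and was chosen after its values were seen, had 11566 ± 44.1 normalized counts in sham and 11543 ± 171 in post-PNX libraries (SD, n = 2 each). The levels below are those of all RNA in this fraction, and in bulk RNA fewer cells of one type and less RNA per cell cannot be told apart. All 44 chromosome Y genes had 0 counts in every library and Xist lay between 31872 and 33792 normalized counts in all 4, which goes against the label of male mice in both groups alike.

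Sequence around the start site was at hand for 6 of the 10 genes (Areg, Btc, Tgfa, Egfr, Erbb2 and Erbb4), from RefSeq on GRCm38.p6, the assembly of mm10. Each window runs from 250 bases before the annotated start to 50 after it. Areg and Btc are shown because they lie in the same ligand cluster on chromosome 5 and behaved differently after PNX, and Erbb2 because its window held the only match among the 6 to the core bound by TEAD factors, the partners of the co-activator YAP1 that the study is about. Capitals mark a palindromic cAMP response element in Areg (TGACGTCA) and the TEAD core in Erbb2 (GGAATG).
Areg, chr5:91139349-91139648, plus strand: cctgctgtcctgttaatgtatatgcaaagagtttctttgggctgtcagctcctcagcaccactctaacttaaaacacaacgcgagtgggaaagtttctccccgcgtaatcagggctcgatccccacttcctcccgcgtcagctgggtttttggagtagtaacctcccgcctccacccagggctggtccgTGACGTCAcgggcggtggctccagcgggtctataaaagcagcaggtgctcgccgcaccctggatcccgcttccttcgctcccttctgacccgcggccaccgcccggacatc
Btc, chr5:91402945-91403244, minus strand: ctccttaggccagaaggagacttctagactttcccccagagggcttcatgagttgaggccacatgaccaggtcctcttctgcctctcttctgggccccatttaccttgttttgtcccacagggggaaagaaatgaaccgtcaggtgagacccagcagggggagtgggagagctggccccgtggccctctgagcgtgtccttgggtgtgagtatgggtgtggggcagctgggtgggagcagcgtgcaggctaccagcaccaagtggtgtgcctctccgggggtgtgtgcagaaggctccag
Erbb2, chr11:98412234-98412533, plus strand: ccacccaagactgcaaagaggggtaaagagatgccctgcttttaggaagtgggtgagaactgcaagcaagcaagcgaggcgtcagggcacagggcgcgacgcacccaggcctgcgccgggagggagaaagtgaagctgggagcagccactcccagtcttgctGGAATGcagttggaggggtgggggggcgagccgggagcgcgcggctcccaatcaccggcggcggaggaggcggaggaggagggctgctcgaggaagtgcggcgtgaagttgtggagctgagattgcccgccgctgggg
The Areg element, looked for after the sequence had been read, began 61 bases before the start site, and 1.79% of the 32851 promoter windows held such an element. The Erbb2 match began 88 bases before the start site, and 14.7% of windows held the TEAD core on either strand. The AP-1 site TGANTCA, present in 7.81% of windows, was not found in any of the 6. The Areg window held 21 CpG dinucleotides at 59.3% GC, and the Btc window held 5 at 60.3% GC. A match is a run of letters in a window and was not tested as a binding site.

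After PNX, 3 ligand genes (Hbegf, Areg and Ereg) and the receptor gene Egfr rose, the ligand gene Tgfa and the receptor genes Erbb2 and Erbb3 fell, and Btc and Nrg1 did not pass the test. Erbb4 was at the detection floor and was not tested. The rises ranged from 1.33-fold for Egfr to 1.88-fold for Ereg, and Erbb3 fell to 0.540 of its sham level. The falls of Tgfa and Erbb2 were smaller and did not pass in DESeq2's Wald test. A gene passed with an adjusted p below 0.01 in edgeR's quasi-likelihood test. Of all genes tested, 29.3% passed as higher and 27.8% as lower, against 4 and 3 of the 9 members tested (44.4% and 33.3%). In either direction 57.1% of all genes passed, so passing was common among all genes. With libraries scaled to 12 endothelial genes instead, 5 members were higher (Nrg1 joined) and 1 was lower (Erbb3), beside 9526 higher and 1367 lower of all genes. That scaling also put Ereg past a log2 fold change of 1 (1.17, adjusted p = 5.9e-09). With TMM normalization in edgeR, and in DESeq2, 0 of the 9 passed that stricter rule, a threshold that 5.90% of genes passed upwards and 1.66% downwards. At an unadjusted p below 0.05 there were 7 members, and 0 of them had a log2 fold change beyond 1. The sham and post-PNX values did not overlap for 7 of the 9 (77.8%), as for 81.2% of all genes. The 9 members had a median log2 fold change of 0.25, the 6 ligands of 0.34 and the 3 receptors of -0.15, against 0.00115 for all genes.

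**Figure D1:**
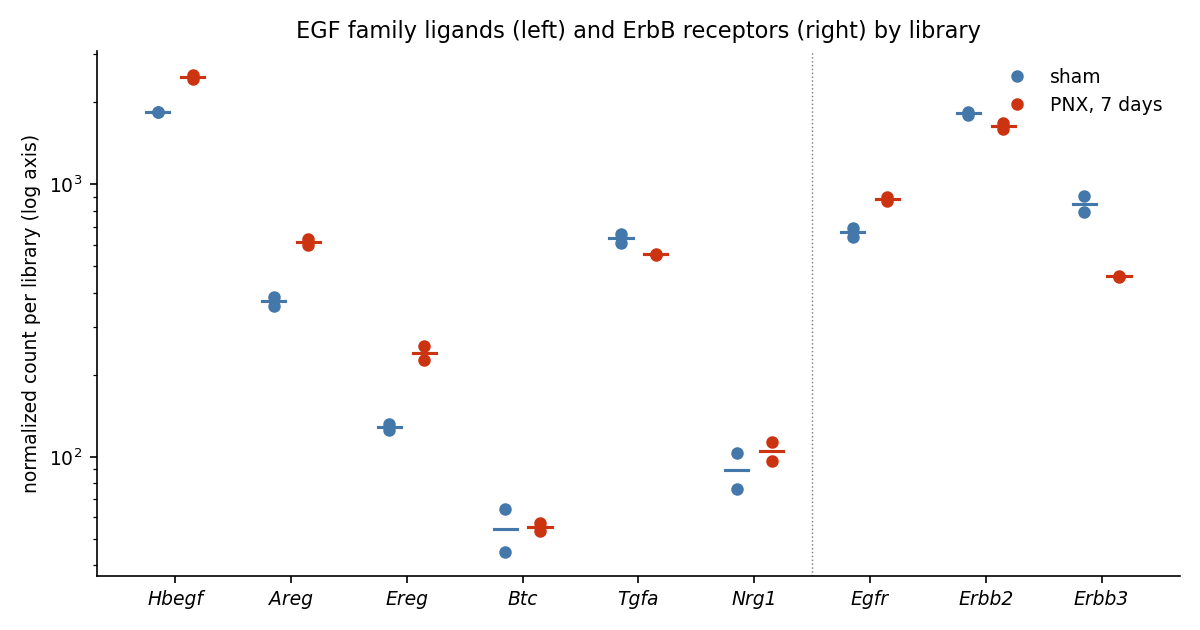
Normalized counts of the 9 tested members on a log axis, with a point for each library and a horizontal bar at the mean of 2 libraries per group; ligands are left of the dotted line and receptors right of it. The post-PNX points of Hbegf, Areg, Ereg and Egfr lie above both sham points, those of Tgfa, Erbb2 and Erbb3 lie below both, and those of Btc and Nrg1 overlap with sham.

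Hbegf encodes heparin-binding EGF, a ligand of Egfr and Erbb4 that is held near the cell surface by heparan sulfate. It lies on chromosome 18 (36504927 to 36515805). Hbegf had 1849.9 and 1850.2 normalized counts with sham surgery and 2443 and 2528 after PNX. Both post-PNX values were above both sham values, and the sham values differed by less than 1 count. The rise was 1.34-fold (log2 fold change 0.42, SE 0.036, adjusted p = 4.9e-16). Of the genes tested, 84.8% had a lower log2 fold change.

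Areg encodes amphiregulin, an Egfr ligand made by epithelial cells and by several immune cells in tissue repair. Its normalized counts were 358 and 386 with sham surgery and 597 and 628 after PNX. The groups did not overlap, with a rise of 1.65-fold (log2 fold change 0.72, SE 0.073, adjusted p = 2.2e-13). Ereg encodes epiregulin, a ligand of Egfr and Erbb4. Its normalized counts were 132 and 125 with sham surgery and 255 and 227 after PNX, a rise of 1.88-fold (log2 fold change 0.91, SE 0.12, adjusted p = 6.9e-10). The antisense gene Gm19610 overlaps Ereg, Gm26578 overlaps Nrg1 and Gm43917 overlaps Tgfa, each on the opposite strand, and without knowing whether counting used strand their reads cannot be told apart. The Ereg rise was the highest fold change among the members, and 93.2% of the genes tested had a lower one.

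Ereg and Areg are neighbours on chromosome 5, at 91074617 to 91093649 and at 91139599 to 91148432, with 46 kb between them. Btc lies 209 kb beyond Areg on the opposite strand (91357261 to 91402994) and encodes betacellulin, which also binds Egfr and Erbb4. Btc had 64.3 and 44.9 normalized counts in sham and 57.0 and 53.5 in post-PNX libraries. The post-PNX values lay between the sham values, and the log2 fold change was 0.01 (SE 0.21, 95% interval -0.41 to 0.42, adjusted p = 0.982). The limits of that interval are about the size of the changes of Hbegf and Egfr. Epgn, the epigen gene at the other end of the cluster (91027517 to 91035212), had 0.906 and 6.12 normalized counts in sham and 12.8 and 6.69 in post-PNX libraries, too few to be tested. A rise that passed the test was thus seen for the middle genes of the cluster, Ereg and Areg.

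Tgfa encodes transforming growth factor alpha, an Egfr ligand of epithelial cells and macrophages, on chromosome 6 (86195038 to 86275744). Its normalized counts were 609 and 659 with sham surgery and 555 and 553 after PNX. The groups did not overlap, and the fall was close to the threshold (log2 fold change -0.19, SE 0.065, adjusted p = 0.00874). It was lost in DESeq2's Wald test (adjusted p = 0.108), with counts summed over transcripts (adjusted p = 0.0202), and without sham replicate 2, PNX replicate 1 or PNX replicate 2 (adjusted p = 0.119, 0.0362 and 0.0341). With libraries scaled to 12 endothelial genes the direction turned (log2 fold change 0.07, adjusted p = 0.328).

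Nrg1 encodes neuregulin 1, the ligand of Erbb3 and Erbb4, and spans chromosome 8 from 31807452 to 32891609. It had 76.1 and 103 normalized counts with sham surgery and 113 and 96.9 after PNX. The groups overlapped, and the log2 fold change was 0.25 (SE 0.16, 95% interval -0.07 to 0.56, adjusted p = 0.176). With scaling to endothelial genes it passed the test (log2 fold change 0.51, adjusted p = 0.00864).

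Among the 5 other EGF family ligand genes, Nrg2, a neuregulin, had 237 and 230 normalized counts in sham and 151 and 193 in post-PNX libraries and fell (log2 fold change -0.45, SE 0.11, adjusted p = 0.000411). Under endothelial scaling that fall did not pass (log2 fold change -0.19, adjusted p = 0.143). Egf had 41.7 and 26.5 normalized counts in sham and 60.9 and 40.1 in post-PNX libraries, which overlapped (log2 fold change 0.57, SE 0.25, adjusted p = 0.0398). Nrg4, a ligand of Erbb4, had 345 and 379 in sham and 374 and 383 in post-PNX libraries (log2 fold change 0.07, adjusted p = 0.483). Nrg3 had 0 counts in every library. With TMM normalization no gene of this list passed as higher (edgeR, 0 of 3 tested), and under endothelial scaling 2 did.

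Egfr, the receptor of EGF and of most of the ligands above, lies on chromosome 11 (16752203 to 16913907). It had 642 and 691 normalized counts with sham surgery and 898 and 870 after PNX. The groups did not overlap and the rise was 1.33-fold (log2 fold change 0.41, SE 0.058, adjusted p = 7.2e-09). Egfr was the only member listed with 2 transcripts. The values above are those of the longer, of 5965 bases, and the shorter, of 2678 bases, had 298 and 327 normalized counts in sham and 376 and 381 in post-PNX libraries. Both transcripts were higher in both post-PNX libraries, but the same reads may be counted for each, so they are not treated as independent measurements.

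Erbb2 has no known ligand of its own and is the preferred partner of the other receptors. It lies on chromosome 11 (98412484 to 98437716) and had 1838 and 1803 normalized counts in sham and 1601 and 1685 in post-PNX libraries. The groups did not overlap, and the fall was small (log2 fold change -0.15, SE 0.040, adjusted p = 0.000864). It did not pass in DESeq2's Wald test (adjusted p = 0.0326), nor without sham replicate 1 or PNX replicate 1 (adjusted p = 0.0141 and 0.0577), and scaling to endothelial genes turned its direction (log2 fold change 0.11, adjusted p = 0.0185). Mien1, which overlaps Erbb2 on the opposite strand, rose from 1047 ± 13.3 to 1158 ± 33.3 normalized counts (adjusted p = 0.00769), and whether strand was used in counting is not given in the sources used here.

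Erbb3 binds neuregulins, has a weak kinase and signals through its partner, mostly to PI3K. It lies on chromosome 10 (128567523 to 128589635) and had 903 and 795 normalized counts in sham and 463 and 456 in post-PNX libraries. Every post-PNX value was far below every sham value, with a fall to 0.540 of the sham level (log2 fold change -0.89, SE 0.066, adjusted p = 1.2e-18). Only 2.68% of the genes tested had a lower log2 fold change. Erbb4, the other neuregulin receptor (chromosome 1, 68031884 to 69108576), had 1 and 2 counts with sham surgery and 0 and 1 after PNX. All 4 were under the floor of 3 counts, so no fold change is given, and a difference was not detectable at this depth.

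**Figure D2:**
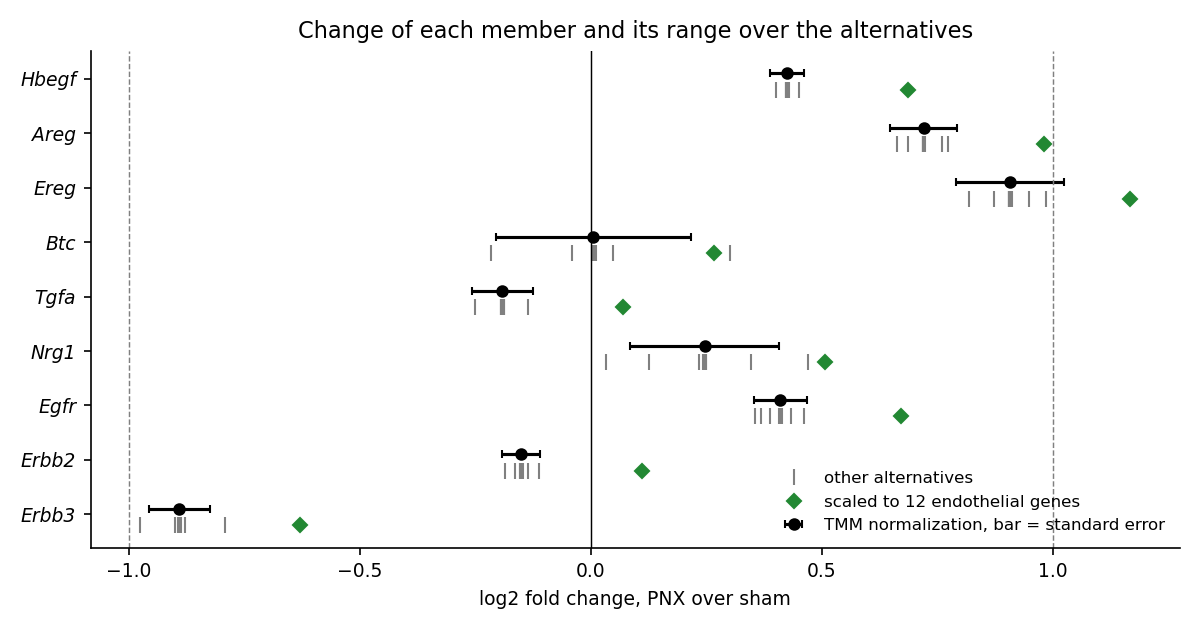
Log2 fold change of post-PNX over sham for the 9 tested members, with black points and standard error bars for TMM normalization, grey ticks for the other alternatives and green diamonds for scaling to 12 endothelial genes; dashed lines mark -1 and 1. Hbegf, Areg, Ereg and Egfr stay right of 0 and Erbb3 left of 0 throughout, whereas Tgfa and Erbb2 cross 0 with endothelial scaling.

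Levels per transcript length allow genes to be set beside each other. Among ligands, Hbegf was the highest at 27.0 ± 0.0190 TPM in sham and 35.4 ± 0.849 TPM in post-PNX libraries (SD, n = 2 each), followed by Areg at 10.8 ± 0.574 and 17.3 ± 0.613 TPM and Tgfa at 5.19 ± 0.284 and 4.44 ± 0.0158 TPM. These 3 did not overlap with each other in either group. The remaining ligands were near or below 2 TPM. Ereg, at 1.11 and 1.05 TPM, was below Nrg1, at 1.26 and 1.70 TPM, in the sham libraries. In the post-PNX libraries Ereg was at 2.09 and 1.86 TPM and Nrg1 at 1.82 and 1.56 TPM, so the order was exchanged, with the nearest values close together. Btc was the lowest in every library, at 0.658 ± 0.166 TPM in sham and 0.651 ± 0.0294 TPM in post-PNX libraries.

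Summed over the 6 ligands, the level was 45.5 and 46.8 TPM in sham and 60.8 and 62.3 TPM in post-PNX libraries. Hbegf held 59.4% and 57.6% of the ligand sum in sham libraries and a like share, 57.4% and 57.9%, after PNX. The share of Areg was 22.8% and 23.8% in sham and 27.8% and 28.5% in post-PNX libraries. The share of Tgfa was 11.0% and 11.5% in sham and 7.32% and 7.11% in post-PNX libraries. Within the ligand pool, the Areg share was thus higher and the Tgfa share lower after PNX, with no overlap between the groups.

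Among receptors, Erbb2 was the highest at 12.6 ± 0.181 TPM in sham and 11.1 ± 0.399 TPM in post-PNX libraries. Erbb3 was second in sham libraries, at 7.79 and 6.85 TPM, and Egfr below it, at 3.74 and 4.01 TPM. After PNX Egfr was above Erbb3, at 5.10 and 4.94 TPM against 3.90 and 3.84 TPM. This order rests on the longer Egfr transcript alone. With the TPM of both Egfr transcripts summed, an alternative added after the data were seen, Egfr was at 7.60 and 8.25 TPM in sham, overlapping with Erbb3, and at 9.86 and 9.76 TPM after PNX, above it, so no exchange of places can be stated. The summed receptor level was 24.3 and 23.4 TPM in sham and 19.9 and 20.2 TPM in post-PNX libraries. Of this sum, Egfr held 15.4% and 17.2% in sham and 25.7% and 24.5% in post-PNX libraries, and Erbb3 held 32.1% and 29.3% in sham and 19.7% and 19.0% in post-PNX libraries. With both Egfr transcripts counted, the Egfr share was 27.0% and 29.9% in sham and 40.1% and 39.0% after PNX, and that of Erbb3 27.7% and 24.8% in sham and 15.8% and 15.3% after PNX. On either count the Egfr share was higher and the Erbb3 share lower in both post-PNX libraries.

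**Figure D3:**
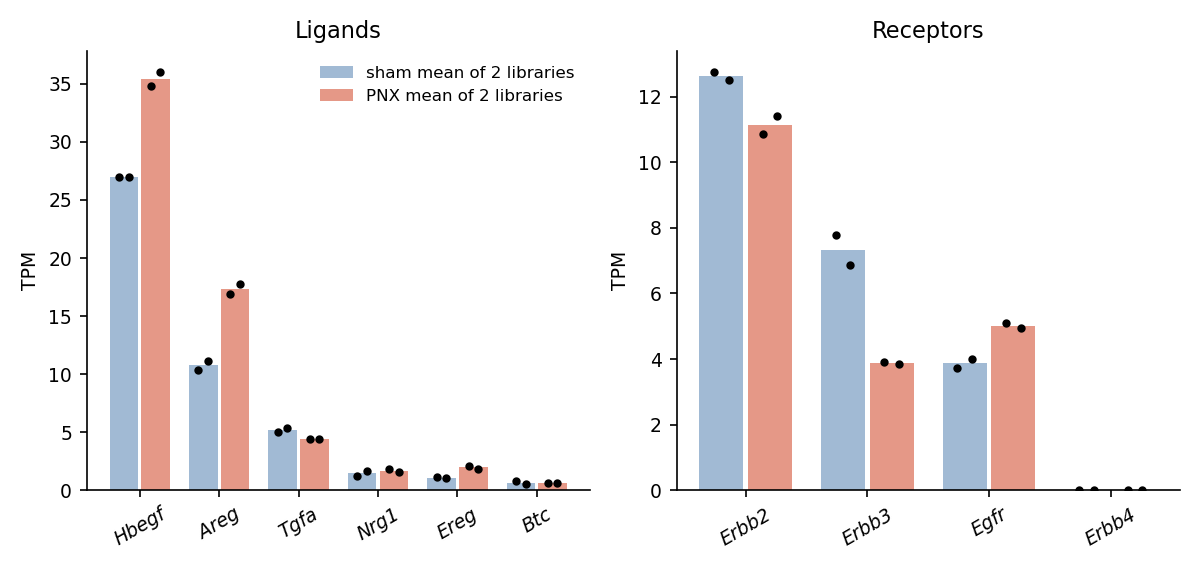
Deposited TPM of the ligands (left) and receptors (right), with bars from 0 to the mean of 2 libraries per group and a point for each library. Hbegf and Areg lead the ligands in both groups, and Egfr, drawn from its longer transcript alone, lies below Erbb3 in sham and above it in post-PNX libraries, an order that does not hold in sham with both transcripts summed.

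The genes listed for release and presentation of the ligands, among them the inhibitor Timp3, were mostly higher after PNX. Of 14 genes for ligand shedding, 12 rose and 0 fell, with a median log2 fold change of 0.22. The shares over all genes tested were 29.3% higher and 27.8% lower. A log2 fold change above 1 was passed by 3 of the 14, and by 5.90% of all genes. Adam12, a metalloprotease that can cut the Hbegf precursor, rose from 425 ± 10.3 to 1625 ± 35.9 normalized counts (log2 fold change 1.94, adjusted p = 3.3e-39). Rhbdl2, a rhomboid protease, rose from 5.21 ± 1.6 to 17.8 ± 1.58 normalized counts (log2 fold change 1.73, adjusted p = 0.00127). Adam15 rose from 14670 ± 98.7 to 20508 ± 122 normalized counts (log2 fold change 0.48). Timp3, an inhibitor of metalloproteases and the most abundant gene of the list, rose slightly (log2 fold change 0.05, adjusted p = 0.00396). Adam17, the main sheddase of Areg and Tgfa, chosen after its values were seen, rose too (log2 fold change 0.22, adjusted p = 3.3e-11). Bace1 and Nrdc did not pass (log2 fold change 0.06 and -0.05).

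Of 8 co-receptor genes, 5 rose and 1 fell (29.3% and 27.8% over all genes), with a median log2 fold change of 0.26. Gpc3 rose from 5672 ± 120 to 9696 ± 265 normalized counts (log2 fold change 0.77), and Sdc4, a heparan sulfate proteoglycan, from 3658 ± 26.8 to 5499.9 ± 2.91 (log2 fold change 0.59). Sdc3 rose as well (log2 fold change 0.25). Cd9, a tetraspanin that binds the Hbegf precursor, fell from 27639 ± 994 to 24899 ± 314 normalized counts (log2 fold change -0.15), a direction that turned under endothelial scaling (0.11).

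Of 30 adaptor and kinase genes, 9 rose, 12 fell and 9 did not pass, beside 29.3% higher and 27.8% lower of all genes. The share that rose was close to that of all genes, and the share that fell was above it. The median log2 fold change was -0.04, with no gene beyond a log2 fold change of 1 in either direction. Mapk3, which encodes ERK1 and was the most abundant, did not pass (log2 fold change 0.03, adjusted p = 0.21). Plcg1 fell from 13017 ± 49.3 to 10164 ± 269 normalized counts (log2 fold change -0.36), Pik3cb fell (log2 fold change -0.41) and Eps8 rose (log2 fold change 0.38).

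Of 19 genes for receptor inhibitors and turnover, 3 rose and 10 fell (29.3% and 27.8% over all genes). Their median log2 fold change was -0.17. Errfi1, an inhibitor that binds the kinases of ErbB receptors, fell from 11234 ± 118 to 5484 ± 145 normalized counts (log2 fold change -1.03, SE 0.023, adjusted p = 2.5e-44). Dusp6, a phosphatase of ERK, fell from 15058 ± 117 to 11593 ± 180 normalized counts (log2 fold change -0.38), and Cblc, a ubiquitin ligase, from 138 ± 10.8 to 78.2 ± 3.40 (log2 fold change -0.81). Under endothelial scaling 7 genes of this list were higher and 4 lower and the median turned to 0.09, whereas Errfi1 still fell (log2 fold change -0.77).

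Of 12 ERK response genes, 6 rose and 4 fell (29.3% and 27.8% over all genes), with a median log2 fold change of 0.13. Etv4 rose from 8.49 ± 3.36 to 129 ± 13.6 normalized counts (log2 fold change 3.87, adjusted p = 1.9e-20), and Ier3 fell from 23959 ± 303 to 15405 ± 197 (log2 fold change -0.64). The most abundant genes, Fos and Egr1, fell slightly (log2 fold change -0.11 and -0.12), and their directions turned under endothelial scaling (0.15 and 0.14). Scaling to endothelial genes moved the median over all genes to 0.26, and under it 14 of 14 shedding, 8 of 8 co-receptor, 23 of 30 adaptor and kinase and 10 of 12 ERK response genes passed as higher.

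**Figure D4:**
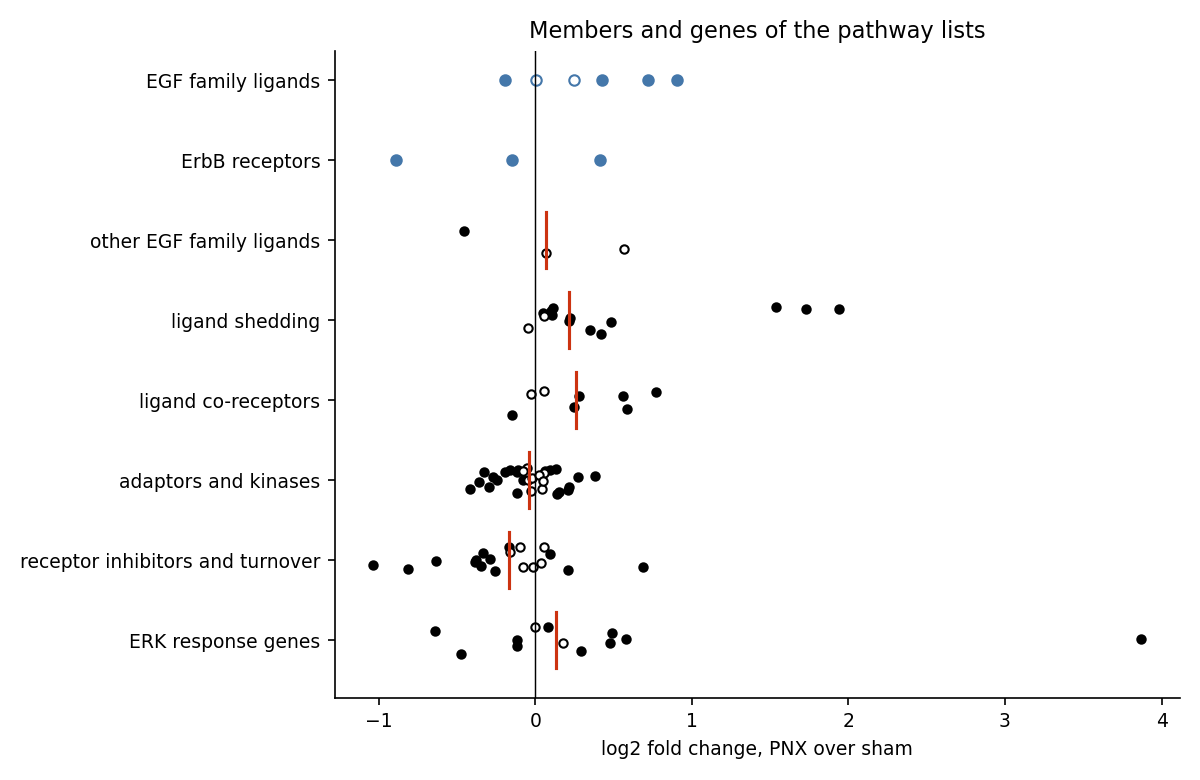
Log2 fold change of post-PNX over sham for the members (blue) and for each tested gene of the pathway lists (black), with filled points for genes with an adjusted p below 0.01, open points for the others and a red bar at the median of each pathway list. Shedding genes lie mostly right of 0 up to 1.94, inhibitor and turnover genes mostly left of it down to -1.03, and Etv4 stands alone at 3.87.

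Markers of several cell types also differed between the groups, where 29.3% of all genes tested were higher and 27.8% lower. Whether they moved together with the members was not tested. All 7 alveolar type 2 and all 6 alveolar type 1 markers fell, with medians of -0.62 and -0.60 on the log2 scale, and so did 6 of 7 airway markers (median -0.75; Krt8 was higher, chosen after its values were seen). The summed normalized counts of the alveolar type 2 markers went from between 327449 and 327883 in sham to between 210316 and 211662 in post-PNX libraries. Those of the alveolar type 1 markers were 85535 and 86470 in sham and 59240 and 59632 in post-PNX libraries, and those of the airway markers 161168 and 162635 in sham and 84540 and 81994 in post-PNX libraries. Sftpc, the most abundant alveolar type 2 marker, had a log2 fold change of -0.62, Ager of the type 1 list -0.38 and Scgb1a1 of the airway list -1.04, beside -0.89 for Erbb3. The largest changes within these lists were those of Sftpa1 (log2 fold change -0.71), Rtkn2 (-0.99) and Krt5 (-2.46). Their part in the fall of Erbb3, a receptor known from lung epithelium, was not tested.

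The markers that were higher lie beside the rises of Hbegf, Areg, Ereg and Egfr. All 8 macrophage markers rose (median log2 fold change 1.02), with summed normalized counts of 167232 and 166481 in sham and 218899 and 218220 in post-PNX libraries, led by Lyz2 in abundance (0.20) and C1qb in change (2.98). Lyz2 alone had 144686 ± 296 normalized counts in sham and 166745 ± 622 in post-PNX libraries. It made up most of the sum, which therefore does not describe the other macrophage markers. Of 8 mast cell and basophil markers 5 rose and 2 fell (median 1.42), with the largest change in Tpsb2 (5.80). Tpsb2 had 3.62 and 2.04 normalized counts in sham and 150 and 186 in post-PNX libraries. Its sham level was thus near the floor of 3 counts, and the size of its change is uncertain. The markers that fell were Kit and Ms4a2 (-0.69), and Mcpt8 did not pass (-0.29), so the list held both directions. Ms4a2 and Mcpt8 were chosen after their values were seen, and under endothelial scaling Ms4a2 did not pass (-0.43). Kit, the most abundant, had a log2 fold change of -0.34 and a sham mean of 23095 normalized counts, beside 242 for Cpa3. Kit thus set the sum, 23537 and 23432 in sham and 19399 and 19144 in post-PNX libraries, which does not describe the other markers of the list. Among 8 markers of type 2 innate lymphoid cells and regulatory T cells, 2 rose and 1 fell (median 0.02; 5 and 1 with a median of 0.28 under endothelial scaling), with Il5 at 1.06, Il7r at -0.53 and summed counts of 3242 and 3160 in sham and 2810 and 2965 in post-PNX libraries. These immune cells include known sources of amphiregulin. According to the methods, isolated cells had been checked by flow cytometry for lack of CD45, whereas Ptprc counts were as given above, and the part of these markers in the rise of Areg was not tested.

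Fibroblast markers rose for 5 of 7 (median log2 fold change 2.08; Pdgfra, chosen after its values were seen, fell, but had a log2 fold change of 0.03 and did not pass under endothelial scaling), with summed normalized counts of 47889 and 48536 in sham and 142986 and 144228 in post-PNX libraries, Col1a2 at 2.08 and Lum at 4.26. All 6 measured mesothelial markers rose (median 1.06), with sums of 12237 and 12253 in sham and 24172 and 24473 in post-PNX libraries, Msln at 1.97 and Wt1 at 2.68. Smooth muscle and pericyte markers rose for 6 of 7 (median 0.46), with sums of 18537 and 18788 in sham and 25493 and 25277 in post-PNX libraries, Pdgfrb at 0.27 and Rgs5 at 2.09. Fibroblasts and mesothelial cells are known to express Egfr, and the part of these markers in its rise was not tested.

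The remaining lists moved less or the other way. All 7 T and B cell markers fell (median log2 fold change -0.86; Cd8a at -1.08), with summed normalized counts of 5781 and 5826 in sham and 3314 and 3151 in post-PNX libraries. Neutrophil markers rose for 4 of the 5 measured (median 0.16; S100a9 at 0.16 and Retnlg at 0.50), with sums of 9435 and 9705 in sham and 10938 and 10583 in post-PNX libraries. Of the 12 endothelial markers, 10 fell and 1 rose (median -0.25; Cdh5 at -0.22 and Eng at -0.54), with sums of 551913 and 557598 in sham and 462218 and 463893 in post-PNX libraries. Under endothelial scaling the endothelial list had 4 higher and 5 lower, a balance set by construction because these 12 genes defined that scaling. All 7 smooth muscle and pericyte and 6 of 7 fibroblast markers were higher under it. In the same setting 7 alveolar type 2, 5 alveolar type 1, 5 airway and 6 T and B cell markers were lower. No marker gene of the lists given here had 0 counts in every library, and the part of these lists in the members' changes was not tested.

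**Figure D5:**
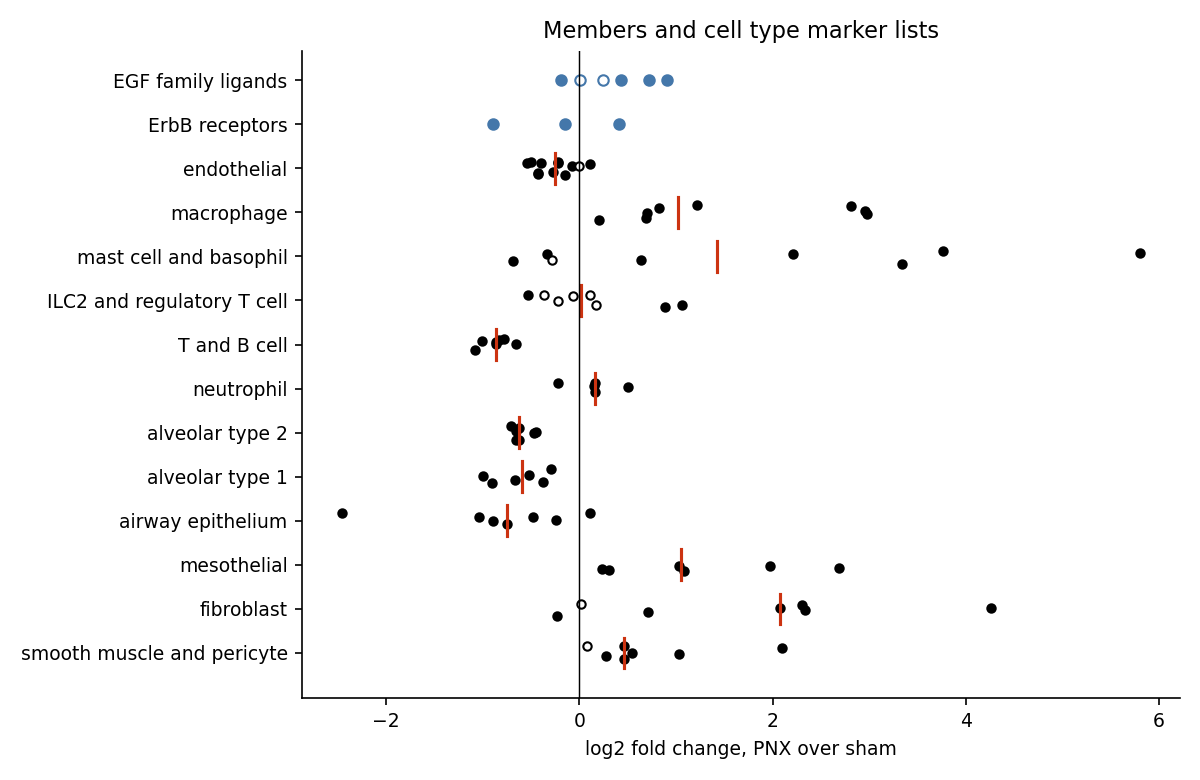
Log2 fold change of post-PNX over sham for the members (blue) and for each tested gene of the cell type marker lists given above (black), with filled points for genes with an adjusted p below 0.01, open points for the others and a red bar at each list's median. The epithelial, T and B cell and endothelial lists have medians left of 0, between -0.86 and -0.25, and the macrophage, mast cell, mesothelial and fibroblast lists have medians right of 1.

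The patterns most like those of the most abundant ligand and receptor were found by the Euclidean distance of centred log2 normalized counts over the 4 libraries. For Hbegf the nearest genes were Hsp90aa1 (distance 0.00861), Des (0.0114) and Tnnt3 (0.0190), and their log2 fold changes were 0.42, 0.43 and 0.43. For Erbb2 the nearest were Rbm41 (0.0128), Gm10336 (0.0142) and Rbm39 (0.0150), with log2 fold changes of -0.15, -0.16 and -0.16. With 4 libraries in 2 groups, many genes lie close to any such pattern, and the distances are a description.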

How the data were processed

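RNA from CD31 bead-isolated lung ECs was sequenced in 4 libraries (2 sham, 2 post-PNX). The authors deposited, per transcript and library, unnormalized read counts, together with FPKM and TPM values scaled to transcript length. A stranded mRNA kit was used and reads were aligned to mm10, with STAR named in the submitters' processing notes; the counting program is not given in the sources used here. The FPKM values deposited were used for transcript lengths, and TPM for levels between genes.

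The transcript with the highest summed count represented each symbol. The count test was that of edgeR 4.0.16 in R 4.3.3 (filterByExpr, TMM, quasi-likelihood F test, Benjamini-Hochberg adjustment over 16208 genes). A gene passed at an adjusted p below 0.01; the stricter rule added a log2 fold change beyond 1, the thresholds of the study's methods. Normalized counts refer to the mean of the TMM-adjusted library sizes (factors 0.9985 to 1.0026), and SE is the size of the log2 fold change divided by the square root of F. Intervals are the log2 fold change plus and minus 1.96 SE. At these depths 3 counts were taken as the floor, for counting error only. Nothing beyond the pooling says how the replicates were separated, so p-values refer to the spread between the 2 libraries of a group. Whether that spread is as large as between separate pools of mice cannot be told from these data. The mean chi-square per gene was 1.76 between the sham and 1.52 between the post-PNX libraries, above but close to counting error alone (1), and 133 and 118 between the groups, so p-values rest on little spread.

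The members, gene lists and the rule for named genes were chosen with earlier results of these data known. All members and other ligands were named, then in each pathway list the 2 genes with the most counts and the 2 with the largest change that passed, and in each marker list the most abundant and the most changed gene. Some genes and 1 marker list under this rule are not reported here. Nrdc and Adgre1 were found under the older symbols Nrd1 and Emr1. Alternatives were scaling to 12 endothelial genes, to DESeq2 size factors or to library size only, no filter or a minimum mean count of 50, DESeq2 1.42.0 with its Wald test, glmTreat, a block for replicate number, transcript sums, an adjusted p below 0.05 and leaving out each library. The steps were tested on simulated data whose changes were all larger than 2-fold, in genes with a mean of at least 50 counts. Those changes were larger than that of any member, so the simulation does not bear on the members' calls.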

Additional observations from a re-analysis of the deposited data

How the results depend on the processing

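Of 117 values of single members under the alternatives, 104 kept their direction and side of the threshold, 8 lost the call, 1 gained it and 4 turned direction. The adjusted p below 0.05 was applied to the main fit itself. It could therefore turn no direction, and no member that passed could lose its call there. Hbegf (log2 fold change 0.40 to 0.69), Areg (0.66 to 0.98), Ereg (0.82 to 1.17), Egfr (0.36 to 0.67) and Erbb3 (-0.97 to -0.63) kept direction and call under the 13 alternatives that test for any change; glmTreat, which tests for a change beyond 2-fold, called 0 members. Btc, at 0.01, ranged from -0.22 to 0.30 with each library left out, turning to -0.22 without sham replicate 2 and to -0.04 without PNX replicate 1, and scaling to 12 endothelial genes turned Tgfa to 0.070 and Erbb2 to 0.11. The number of members lower, 3 with TMM, was 1 under endothelial scaling and 1 in DESeq2's Wald test, and between 1 and 2 with each library left out; without PNX replicate 1 it was 1 (Erbb3). With both thresholds, 1 member (Ereg) was higher under endothelial scaling and 0 with TMM. Over all genes, 4745 were higher and 4513 lower with TMM, and 9526 and 1367 under endothelial scaling, which by construction moves all genes by 1 factor. With TPM summed over transcripts, which adds a transcript of Egfr and was chosen after the data were seen, 2 of 4 receptors kept their place in the sham order. With both thresholds 957 genes were higher and 269 lower; glmTreat gave 604 and 39, endothelial scaling gave 84 lower, and a mean of at least 50 counts gave 160 lower, with fewer genes tested (14298). For the other turns and losses the cause was not tested. With the replicate number as a block, 4 members were higher and 3 lower, as without it; deviations of same-numbered libraries had a correlation of 0.023, and the numbers come from different mice. With 2 libraries per group and 71 counts or fewer of Btc in a library, small changes of the low ligands could not be seen.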
